A study of Mus musculus with 6 samples.

Results

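The latrophilins (Adgrl1, Adgrl2 and Adgrl3) and the brain-specific angiogenesis inhibitors, or BAIs (Adgrb1, Adgrb2 and Adgrb3), were examined together with the Flrt2, Flrt3, Tenm2 and Tenm4 genes, which encode latrophilin ligands. The 10 genes were taken by symbol from the mRNA table, out of 12559 gene symbols. They had been selected on the FPKM values of these same 6 mice, RSD against control, per transcript and as sums, so their differences between the groups are given as a description and no test is read from them. The 10 genes hold 60 of the 32870 mRNA transcripts. The samples were prefrontal cortex (PFC) of male C57BL/6 mice aged 6 to 8 weeks, 3 control mice and 3 mice after repeated social defeat (RSD), in which an aggressive male CD-1 intruder was put into the home cage in daily bouts. Control mice stayed undisturbed in another cage and another room, and mice of both groups were kept 3 to a cage, so RSD cannot be told apart from cage and room. RSD mice were sequenced only after they had shown anxiety-like behavior in a maze. The labels do not say which mice shared a cage, and each library is 1 mouse.

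Adhesion receptors of this kind carry a long extracellular part that binds proteins on a neighbouring cell, a domain in which the protein cuts itself, and a membrane part that couples to G proteins. Latrophilins on one side of a synapse bind teneurins and FLRT proteins on the other side, and Adgrl1 is also the receptor for alpha-latrotoxin of the black widow spider and a binder of neurexins. BAIs take part in the formation of dendritic spines and, in the case of Adgrb1, in the uptake of dying cells. Adgrb3 binds secreted C1q-like proteins. Latrophilins in particular are known for a part in setting which axons make synapses on which neurons.

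The files gave 1 value per transcript and mouse in FPKM, fragments scaled to transcript length and to the mapped fragments of the library, and the software of the study had apportioned the fragments of a gene to its isoforms. Read depth is available only as an estimate relative to control mouse 1, which ranged from 0.859 to 0.966 in the other 5 libraries. Correlations of log2 gene levels between libraries, taken across genes, ran from 0.825 to 0.913. Control mouse 1 correlated at 0.835 and 0.859 with control mice 2 and 3, against 0.883, 0.891 and 0.884 with RSD mice 1, 2 and 3. Its library thus stood closer to the RSD libraries across genes, and the effect on the differences below was not tested. Slc17a7, which encodes a transporter that fills vesicles with glutamate and marks cortical excitatory cells, had values of 311, 0 and 0.0055 FPKM in control mice 1, 2 and 3 against 327, 331 and 311 FPKM in RSD mice 1, 2 and 3. An exact 0 may therefore be a failed estimate, and control mouse 1 stood with the RSD mice at this gene. The other 5 excitatory neuron markers summed to 69.3, 55.9 and 58.3 FPKM in control mice against 83.6, 66.6 and 58.3 FPKM in RSD mice, and the groups overlapped. Of 11 marker lists, the groups did not overlap for 2. The 5 oligodendrocyte markers summed to 121 to 198 FPKM in control mice against 206 to 257 FPKM in RSD mice, none of them at 0. Cdhr1, the one olfactory bulb marker of 4 with a row, was at 0.492 to 0.560 FPKM in control mice against 0.583 to 0.672 FPKM in RSD mice. The part of these differences in the values below was not tested. In bulk tissue, fewer cells of a type and less RNA per cell cannot be told apart.

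Summed over its mRNA transcripts, each gene was detected in all 6 mice. By the mean of the 6 mice the order was Adgrl1 (42.2 FPKM), Adgrb3 (34.6), Adgrl3 (29.1), Adgrb2 (20.4), Flrt2 (11.5), Flrt3 (10.6), Adgrl2 (9.58), Tenm4 (8.26), Tenm2 (5.38) and Adgrb1 (3.73). The ranges over the 6 mice overlapped between every pair of neighbours in this order. On the log2(FPKM + 0.1) scale used for all differences below, 7 of the 10 sums were higher and 3 lower in RSD mice on average, with a median difference of 0.56 against 0.03 over all 12277 genes tested. Adgrl1 and Adgrl3 were above every control mouse in all 3 RSD mice, Adgrb3 and Flrt3 were below, and the groups overlapped for the other 6. Over all genes tested, 9.39% were above and 6.66% were below in this way. A single sum, that of Adgrb2, passed the threshold of the study, as did 2.42% of all genes. That threshold is a log2 difference of 1 or more in either direction together with p at or under 0.05 before adjustment. The p used for it here and below came from limma, not from the test of the study. No sum reached an adjusted p under 0.05 in limma with Benjamini-Hochberg adjustment over all genes, a mark that 0.0733% of all genes reached, while 3 sums had an unadjusted p of at most 0.05, as did 8.94% of all genes.

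**Figure D1:**
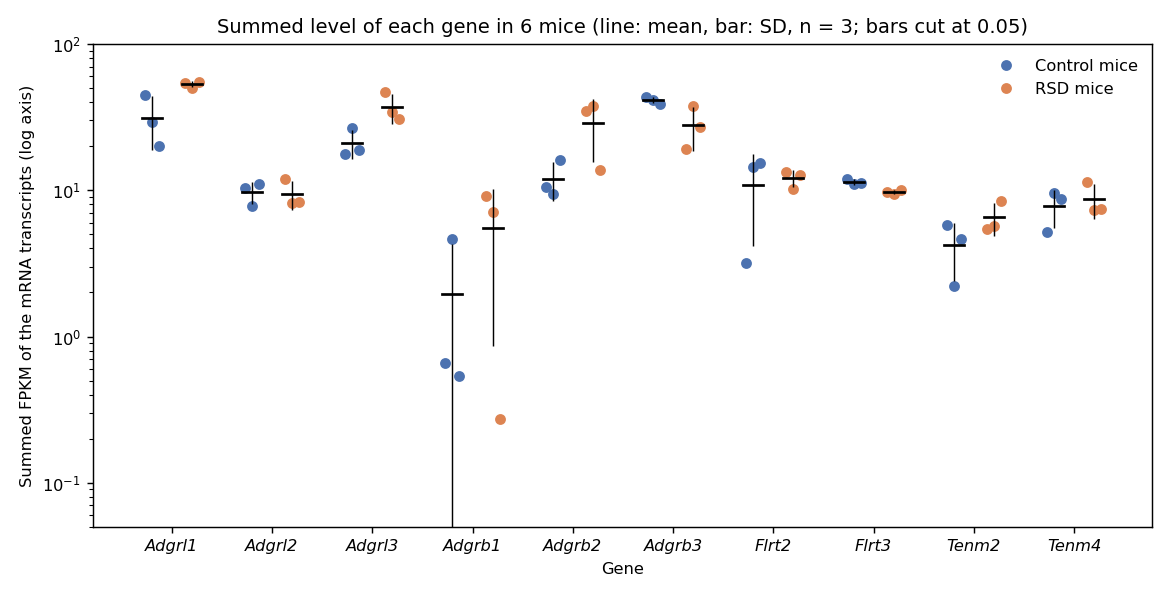
Summed FPKM of the mRNA transcripts of each of the 10 genes (log axis), with 1 point per mouse, a line at the mean and a bar of 1 SD (n = 3 per group, bars ending at 0.05). The RSD mice lie above all control mice for Adgrl1 and Adgrl3 and below them for Adgrb3 and Flrt3, and the Adgrb1 points spread from 0.273 to 9.14 FPKM.

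Adgrl1 was the most abundant of the genes. Its sum was 44.7, 29.2 and 20.0 FPKM in control mice 1, 2 and 3 and 54.0, 50.1 and 55.3 FPKM in RSD mice 1, 2 and 3. The RSD mice lay close together and the control mice did not, with 31.3 ± 12.5 FPKM (SD, n = 3) in control mice against 53.1 ± 2.71 FPKM (SD, n = 3) in RSD mice and a log2 difference of 0.84 ± 0.29 (SE), or 0.55 without control mouse 3. ENSMUST00000141158, which spans the whole gene, led in every mouse and took 48.6% to 95.4% of the sum. Its level was 35.2, 26.1 and 15.5 FPKM in control mice against 26.2, 39.7 and 52.8 FPKM in RSD mice, so the groups overlapped at this transcript. RSD mouse 1 reached its sum through another one. ENSMUST00000152978 was at 24.5 FPKM there and between 0.316 and 0.703 FPKM in the other 5 mice, and without it the Adgrl1 sums of the groups overlapped, at 19.7 to 44.4 FPKM in control mice against 29.5 to 54.8 FPKM in RSD mice. ENSMUST00000124355 was the one Adgrl1 transcript past the threshold of the study, at 0.473, 0.775 and 0.618 FPKM in control mice against 1.99, 2.00 and 1.58 FPKM in RSD mice (log2 difference 1.45 ± 0.26). ENSMUST00000131717, which starts 24.1 kb inside the gene, was at 8.67, 1.55 and 3.59 FPKM in control mice against 1.30, 8.05 and 0.472 FPKM in RSD mice. It varied from mouse to mouse in both groups.

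The leading Adgrl1 transcript starts 7 bases downstream of the RefSeq start of the gene, and the promoter there is shown because the leading transcript begins there. It is chr8:83899848-83900147 of GRCm38.p6, plus strand, 250 bases before and 50 bases after the start, from RefSeq. Capitals mark the 2 GC box matches (GGGCGG on either strand, here read as CCGCCC), the only matches of the 5 motifs searched.
Adgrl1 promoter: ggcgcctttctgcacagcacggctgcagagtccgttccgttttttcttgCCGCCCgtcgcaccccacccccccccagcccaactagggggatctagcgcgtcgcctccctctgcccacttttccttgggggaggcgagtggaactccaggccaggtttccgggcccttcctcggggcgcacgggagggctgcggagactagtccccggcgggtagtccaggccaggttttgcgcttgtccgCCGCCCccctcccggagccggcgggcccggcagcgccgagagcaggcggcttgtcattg
GC box letters were found in 35.7% of 32851 mouse promoters of the same length and in 6 of the 12 promoters listed for 9 of the 10 genes, none being listed for Adgrb1. The other motifs searched on both strands were TATAAA (13.6% of all promoters, 2 of the 12), CCAAT (37.4%, 1 of the 12), CACGTG (7.15%, 1 of the 12, at Flrt2) and TGACGTCA (1.79%, none of the 12). No motif overlapped another in its letters. The 12 promoters ranged from 38% to 81.7% GC and from 2 to 45 CpG sites, with medians of 52.7% and 7 over all promoters.

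Adgrl2 was the evenest of the receptors. The sum was 10.4, 7.76 and 11.0 FPKM in control mice against 11.9, 8.12 and 8.32 FPKM in RSD mice, a log2 difference of -0.05 ± 0.21. Its sign was positive when control mouse 1, control mouse 3, RSD mouse 2 or RSD mouse 3 was left out, within a range of -0.22 to 0.05. It has 7 mRNA transcripts and none passed either threshold as a level or as a share of the gene. The highest by mean was ENSMUST00000098518, at 2.72, 2.05 and 1.89 FPKM in control mice against 1.91, 1.84 and 2.11 FPKM in RSD mice. ENSMUST00000106128 was at 2.56, 1.41 and 0.753 FPKM in control mice against 0.505, 1.20 and 0.572 FPKM in RSD mice. ENSMUST00000200543 was listed at 0 in 4 mice, 2 of each group, and at 2.76 FPKM in control mouse 3 and 4.43 FPKM in RSD mouse 1. ENSMUST00000199750, ENSMUST00000200023 and ENSMUST00000197521 stayed between 0.643 and 2.26 FPKM in all mice. The groups overlapped at all 7 transcripts.

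At Adgrl3, 4 transcripts were higher in RSD mice by more than the other 10 together were lower, so the sum was higher too. Its sum was 17.7, 26.5 and 18.9 FPKM in control mice against 46.9, 34.1 and 30.5 FPKM in RSD mice, or 21.1 ± 4.79 against 37.2 ± 8.60 FPKM (SD, n = 3 each) and a log2 difference of 0.82 ± 0.23. The excess lay in 4 of its 14 transcripts, which share one start at position 81309912 of chromosome 5 (plus strand, GRCm38), 289.8 kb downstream of the most upstream start, and end within the last part of the gene. Together these 4 were listed at 0, 0.0129 and 0 FPKM in control mice against summed to 32.0, 18.7 and 15.4 FPKM in RSD mice. The other 10 transcripts summed to 17.7, 26.5 and 18.9 FPKM in control mice against 14.9, 15.5 and 15.1 FPKM in RSD mice, so that without the 4 every RSD mouse was below every control mouse.

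Each of the 4 transcripts took a different part of this in each RSD mouse. ENSMUST00000122356 had a listed value of 0 throughout the control mice but reached 18.8, 6.91 and 3.31 FPKM in RSD mice 1, 2 and 3. ENSMUST00000122037, also at 0 in every control mouse, was at 9.48, 4.42 and 7.45 FPKM. ENSMUST00000119385 was at 0, 0.0129 and 0 FPKM in control mice against 3.29, 7.35 and 3.16 FPKM in RSD mice. A different one of these 3 was therefore the leading Adgrl3 transcript in each RSD mouse, with 40.1%, 21.5% and 24.4% of the sum. The study, by its own test, lists all 3 among its most upregulated mRNAs. ENSMUST00000117407, at 0 in every control mouse, was at 0.415, 0 and 1.47 FPKM in RSD mice and was too low to be tested. No fold is given against control mice listed at 0, since such a 0 may be a failed estimate, as at Slc17a7. In the limma fit over all transcripts the 3 others were called at an adjusted p under 0.05 as levels and as shares of the gene, as were 0.112% of all transcripts and 0.0881% of all shares in the higher direction. They met the filter of 0.5 FPKM in 3 mice only through the RSD mice and had been selected on these values, so nothing is read from the calls. The number of levels called higher among the 47 transcripts tested was 2 without control mouse 1, 1 without control mouse 2, control mouse 3 or RSD mouse 2, and 0 without RSD mouse 1 or RSD mouse 3. The number of shares called was 1 without control mouse 1 and 0 without any other mouse.

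Among the other Adgrl3 transcripts the leading ones of the control mice started at the upstream end. ENSMUST00000140356 was at 3.73, 8.10 and 4.13 FPKM in control mice against 3.14, 2.94 and 2.94 FPKM in RSD mice (log2 difference -0.72 ± 0.32, or -0.38 without control mouse 2). ENSMUST00000147226 was at 2.11, 3.01 and 3.79 FPKM in control mice against 1.47, 1.81 and 1.76 FPKM in RSD mice (-0.75 ± 0.26). At both, every RSD mouse was below every control mouse. ENSMUST00000148923, the leading one in control mouse 1, overlapped between the groups at 3.21 to 4.98 FPKM in control mice against 2.99 to 4.57 FPKM in RSD mice. As shares of the gene, ENSMUST00000147226 (-1.57 ± 0.39), ENSMUST00000140356 (-1.53 ± 0.33), ENSMUST00000134597 (-1.11 ± 0.33) and ENSMUST00000200930 (-1.02 ± 0.35) were past the threshold of the study in the lower direction. These shares divide by a sum that the 4 downstream-start transcripts raise, so they are not separate from them. ENSMUST00000134597, which starts at 81309882, just before those 4, but ends 326.2 kb from the most upstream start, was itself at 1.25, 1.91 and 1.40 FPKM in control mice against 1.02, 1.43 and 1.19 FPKM in RSD mice. ENSMUST00000200930, ENSMUST00000201055 and ENSMUST00000201803 lie in the downstream part of the gene, and the groups overlapped at each of them, over ranges of 1.17 to 2.13, 0.911 to 1.66 and 0.442 to 2.40 FPKM.

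**Figure D2:**
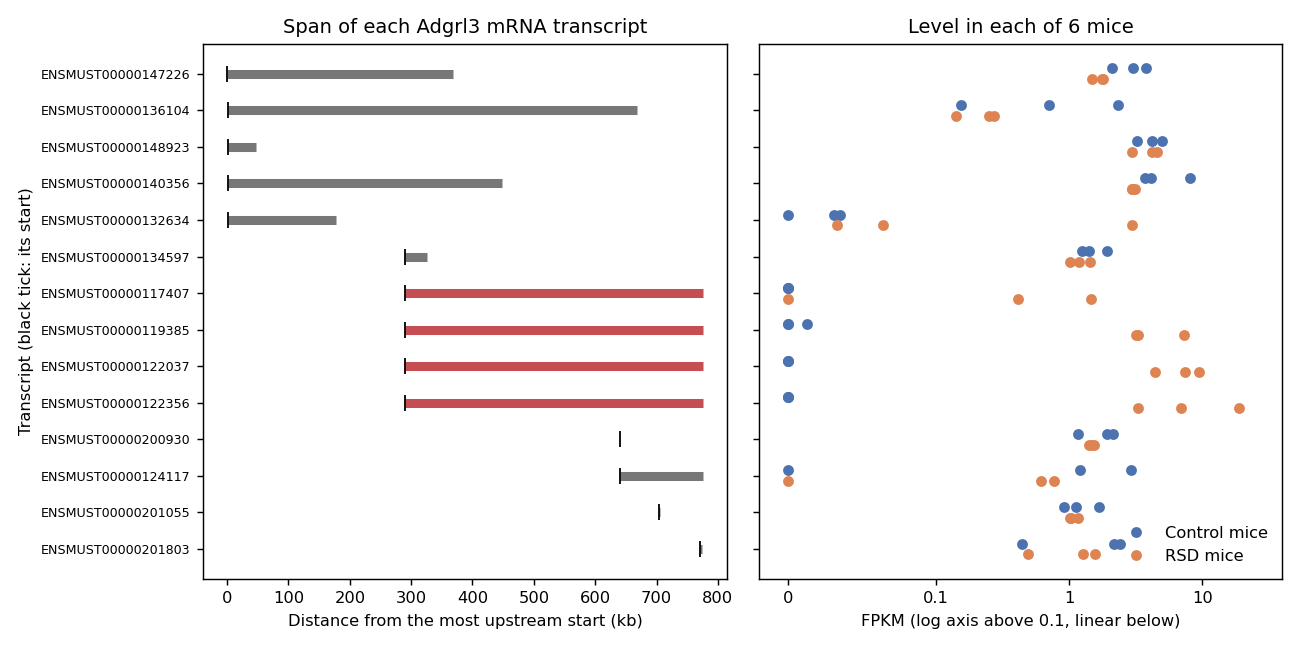
Left, the span of each of the 14 Adgrl3 mRNA transcripts in kb from the most upstream start, with a tick at its start and the 4 transcripts that share the downstream start in red. Right, the FPKM of each transcript in each mouse, on an axis that is logarithmic above 0.1 and linear below. The red transcripts sit at 0 to 0.0129 FPKM in the control mice, and 3 of them at 3.16 to 18.8 FPKM in every RSD mouse.

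Adgrb1, the phagocytic receptor of the family, was low and erratic. Its sum was 0.657, 4.66 and 0.540 FPKM in control mice against 9.14, 7.08 and 0.273 FPKM in RSD mice, a 33.5-fold range over the 6 mice. The log2 difference of 1.14 ± 1.45 was smaller than its own standard error and moved with every mouse left out, from 0.31 without RSD mouse 1 to 2.62 without RSD mouse 3. The same transcript carried the high values of RSD mice 1 and 2, and another carried that of control mouse 2. ENSMUST00000187639 was at 8.20 and 6.38 FPKM in RSD mice 1 and 2, at 0.0973 FPKM in control mouse 3 and listed at 0 in the other 3 mice. ENSMUST00000186095 was at 4.01 FPKM in control mouse 2 and at most 0.284 FPKM elsewhere. The full-length ENSMUST00000187485 was the only one of the 3 that passed the filter for testing, and it was at 0.593, 0.647 and 0.402 FPKM in control mice against 0.870, 0.423 and 0.183 FPKM in RSD mice, with overlapping groups.

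Adgrb2 was the one gene whose sum passed the threshold of the study, and that call rested on 2 mice. The sum was 10.5, 9.46 and 16.0 FPKM in control mice against 34.9, 37.6 and 13.7 FPKM in RSD mice (log2 difference 1.16 ± 0.44), with RSD mouse 3 inside the control range. ENSMUST00000106015 was at 24.0 and 25.7 FPKM in RSD mice 1 and 2, at 1.98 FPKM in control mouse 1 and listed at 0 in control mice 2 and 3 and RSD mouse 3. Without this transcript the Adgrb2 sums were 8.53, 9.46 and 16.0 FPKM in control mice against 11.0, 11.9 and 13.7 FPKM in RSD mice, and the groups overlapped. Without control mouse 2, RSD mouse 1 or RSD mouse 2 the number of sums past that threshold was 0, and without RSD mouse 3 it was 2. ENSMUST00000120204, which starts 7.20 kb further upstream, was at 3.85 FPKM in control mouse 3 and 5.09 FPKM in RSD mouse 3, the leading transcript in both, and between 0 and 0.845 FPKM in the other 4 mice. ENSMUST00000166118, a short transcript inside the gene, was the only one of 10 at which the groups did not overlap, at 1.27, 2.28 and 1.94 FPKM in control mice against 2.97, 2.97 and 2.48 FPKM in RSD mice (0.62 ± 0.26, or 0.39 without control mouse 1). ENSMUST00000136787 was even at 2.01 to 3.02 FPKM in control mice against 2.35 to 2.75 FPKM in RSD mice, and its share of the gene differed by -1.16 ± 0.47, past the threshold of the study. So did the share of ENSMUST00000106012 (-2.21 ± 0.53), whose level was 0.702 to 0.937 FPKM in 5 mice and 0.0164 FPKM in RSD mouse 3. ENSMUST00000121049 (0 to 3.67 FPKM) and ENSMUST00000136416 (0.410 to 2.37 FPKM) overlapped between the groups.

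Adgrb3, the C1q-like protein receptor, was the BAI with the lower sum in RSD mice. It was at 43.3, 41.5 and 39.1 FPKM in control mice against 19.0, 37.6 and 27.2 FPKM in RSD mice, or 41.3 ± 2.09 against 28.0 ± 9.34 FPKM (SD, n = 3 each) and a log2 difference of -0.62 ± 0.25, or -0.37 without RSD mouse 1. The low sums of RSD mice 1 and 3 lay in a single transcript, at which the groups overlapped. ENSMUST00000041838 was at 34.9, 28.7 and 29.7 FPKM in control mice, 29.4 FPKM in RSD mouse 2, and 0.00302 and 0.00283 FPKM in RSD mice 1 and 3. In the same RSD mice 1 and 3, ENSMUST00000151309 was at 5.34 and 7.99 FPKM against 1.03 to 1.38 FPKM in the other 4 mice, and ENSMUST00000126096 was at 7.41 and 7.75 FPKM against 2.47 to 4.73 FPKM. RSD mouse 2 thus stood with the control mice at these 3 transcripts. Without ENSMUST00000041838 the Adgrb3 sums were 8.45, 12.8 and 9.45 FPKM in control mice against 19.0, 8.27 and 27.2 FPKM in RSD mice. ENSMUST00000154102 (2.15 to 2.99 FPKM) and ENSMUST00000189254 (1.87 to 3.42 FPKM) varied little. In limma, no Adgrb3 transcript or share passed either threshold. By its own test, the study lists ENSMUST00000041838 among its most downregulated mRNAs.

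The pair with opposite values, ENSMUST00000151309 and ENSMUST00000041838, start 2.947 kb apart on the minus strand of chromosome 1 and end 762.2 and 762.0 kb from the first of these starts. The promoter shown is the one listed by RefSeq, whose start is that of ENSMUST00000151309, chr1:25829658-25829957 of GRCm38.p6, minus strand. Capitals mark 3 GC box matches (CCGCCC, the other strand of GGGCGG) and 1 CCAAT match.
Adgrb3 promoter: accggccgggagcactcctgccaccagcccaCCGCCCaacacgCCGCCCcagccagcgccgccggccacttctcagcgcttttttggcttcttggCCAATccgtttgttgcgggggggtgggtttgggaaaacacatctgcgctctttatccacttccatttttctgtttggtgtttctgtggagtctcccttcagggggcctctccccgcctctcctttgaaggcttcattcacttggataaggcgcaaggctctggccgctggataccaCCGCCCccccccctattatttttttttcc
This was the single CCAAT match among the 12 promoters. No promoter is listed at the start of ENSMUST00000041838, nor at the downstream start of Adgrl3.

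**Figure D3:**
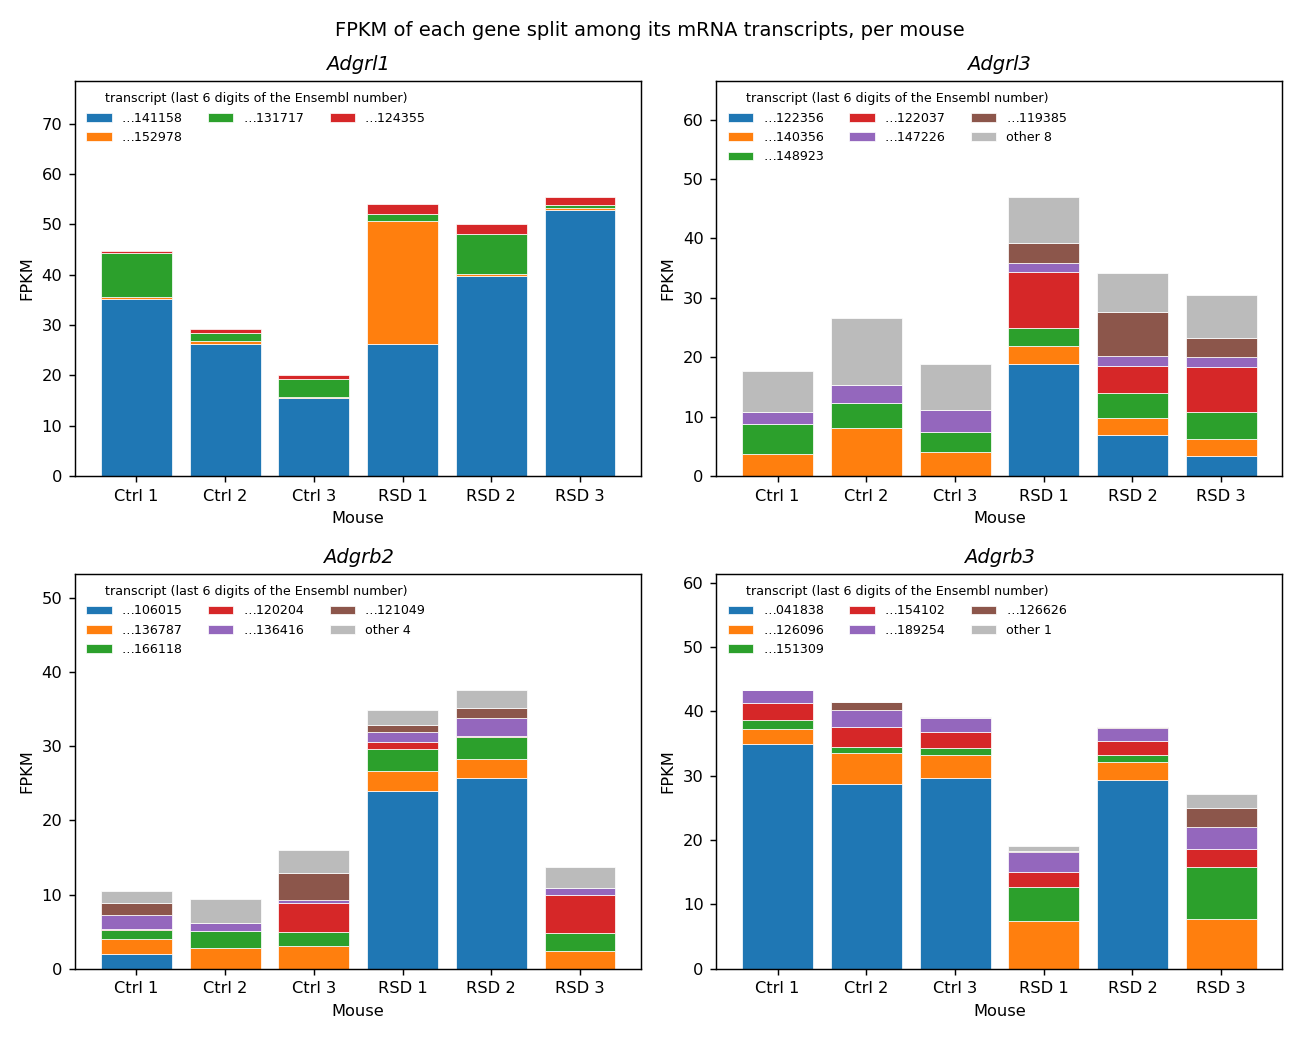
FPKM of Adgrl1, Adgrl3, Adgrb2 and Adgrb3 in each mouse, stacked by transcript, with up to 6 transcripts of highest mean in colour and any others in grey. The blue ENSMUST00000041838 fills most of the Adgrb3 bar in the control mice and RSD mouse 2 and is absent from the bars of RSD mice 1 and 3, and the blue ENSMUST00000106015 of Adgrb2 appears at 24.0 and 25.7 FPKM in RSD mice 1 and 2.

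The FLRT ligands had 2 transcripts each, and the same one led in most mice. Flrt2, which also binds UNC5 receptors, was at 3.16, 14.4 and 15.3 FPKM in control mice against 13.2, 10.2 and 12.8 FPKM in RSD mice (log2 difference 0.43 ± 0.62). Control mouse 1 alone was low, and without it the Flrt2 difference was -0.30, while it was 0.77 without control mouse 2 and 0.82 without control mouse 3. The low value lay in ENSMUST00000057324, at 1.25 FPKM in control mouse 1 and 9.22 to 11.7 FPKM in the other mice. ENSMUST00000110117 was at 1.91, 2.75 and 3.59 FPKM in control mice against 4.02, 0.284 and 2.80 FPKM in RSD mice, with RSD mouse 2 low. Flrt3, a ligand of Adgrl3 in particular, had the smallest fold range over the 6 mice of the 10 genes. It was at 12.0, 11.0 and 11.1 FPKM in control mice against 9.77, 9.43 and 10.1 FPKM in RSD mice, or 11.4 ± 0.55 against 9.76 ± 0.324 FPKM (SD, n = 3 each) and a log2 difference of -0.22 ± 0.10. All 3 RSD mice were below the control mice by a small margin, and each mouse left out in turn kept the difference between -0.24 and -0.18. ENSMUST00000110057 led in every mouse with 79.7% to 87.6% of the sum and was also lower in each RSD mouse, at 10.5, 9.28 and 9.23 FPKM in control mice against 8.19, 8.09 and 8.03 FPKM in RSD mice. ENSMUST00000056760 stayed between 1.34 and 2.05 FPKM.

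The teneurin ligands again differed by transcript. Tenm2 summed to 5.74, 2.23 and 4.67 FPKM in control mice against 5.47, 5.68 and 8.49 FPKM in RSD mice (log2 difference 0.70 ± 0.39), and the groups overlapped. Without control mouse 2, the lowest, the Tenm2 difference was 0.30. ENSMUST00000057207 was at 3.91, 0 and 3.85 FPKM in control mice against 4.55, 5.05 and 8.12 FPKM in RSD mice, above in every RSD mouse. ENSMUST00000157030 was below in every RSD mouse, at 1.43, 1.11 and 0.527 FPKM in control mice against 0.332, 0.200 and 0.156 FPKM in RSD mice. The latter covers the first 291.8 kb of the locus and ends where the former starts, and it was past the threshold of the study as a level (-1.71 ± 0.48) and as a share (-2.41 ± 0.63). Tenm4 summed to 5.19, 9.52 and 8.67 FPKM in control mice against 11.4, 7.34 and 7.44 FPKM in RSD mice (0.18 ± 0.30), and the difference changed sign without control mouse 1 (-0.09) or RSD mouse 1 (-0.03) and was 0.28 to 0.34 without any of the other 4 mice. ENSMUST00000107165, a near full-length transcript, had a listed value of 0 throughout the control mice but reached 4.26, 1.38 and 0.262 FPKM in RSD mice. It was too low for the filter used here, while the study, by its own test, lists it among its most upregulated mRNAs. The other long one, ENSMUST00000107166, was at 0.845, 2.16 and 2.40 FPKM in control mice against 0.689, 0 and 0.564 FPKM in RSD mice (level -2.23 ± 0.90, share -2.40 ± 0.76, both past the threshold of the study). Without RSD mouse 2, listed at 0, the level difference of ENSMUST00000107166 was -1.27 and that of its share -1.56. ENSMUST00000129737, a short transcript inside the gene, was above in every RSD mouse, at 0.418, 0.556 and 0.326 FPKM in control mice against 1.42, 1.78 and 1.23 FPKM in RSD mice, past the same threshold as a level (1.57 ± 0.29) and as a share (1.40 ± 0.41). ENSMUST00000131541 (1.45 to 2.60 FPKM) and ENSMUST00000130299 (0 to 2.79 FPKM, at 0 in RSD mouse 3) overlapped between the groups.

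The promoter at the start of ENSMUST00000107165, the Tenm4 transcript at 0 in every control mouse, is chr7:96211421-96211720 of GRCm38.p6, plus strand, and holds no match to the 5 motifs, so it is printed without capitals.
Tenm4 promoter: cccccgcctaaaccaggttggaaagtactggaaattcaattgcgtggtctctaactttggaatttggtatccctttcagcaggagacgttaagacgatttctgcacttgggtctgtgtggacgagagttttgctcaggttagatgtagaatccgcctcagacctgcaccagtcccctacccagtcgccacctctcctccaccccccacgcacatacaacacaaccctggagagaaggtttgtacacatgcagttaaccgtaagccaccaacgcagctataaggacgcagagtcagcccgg
It is 52.3% GC with 12 CpG sites. On the scale of the most upstream Tenm4 start, ENSMUST00000107165 starts at 1.958 kb and ENSMUST00000107166 at 0.924 kb.

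Counted over all 60 transcripts, 47 passed the filter on low values and 13 did not. Of the 47, 19 were higher and 28 lower in RSD mice on average, with a median log2 difference of -0.07 against 0.01 over all transcripts, while the gene sums leaned the other way. Past the threshold of the study were 5 in the higher direction (2.57% of all transcripts) and 2 in the lower (1.51%). The groups did not overlap for 7 above (7.22%) and 5 below (6.17%). As shares, 4 of 46 were past it in the higher direction (1.84%) and 8 in the lower (2.05%), and 4 of the latter were of Adgrl3. ENSMUST00000119385, ENSMUST00000122037 and ENSMUST00000122356 of Adgrl3 are in each of these counts of the higher direction. They met the filter only through the RSD mice, so nothing is read from those counts beside the percentages.

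**Figure D4:**
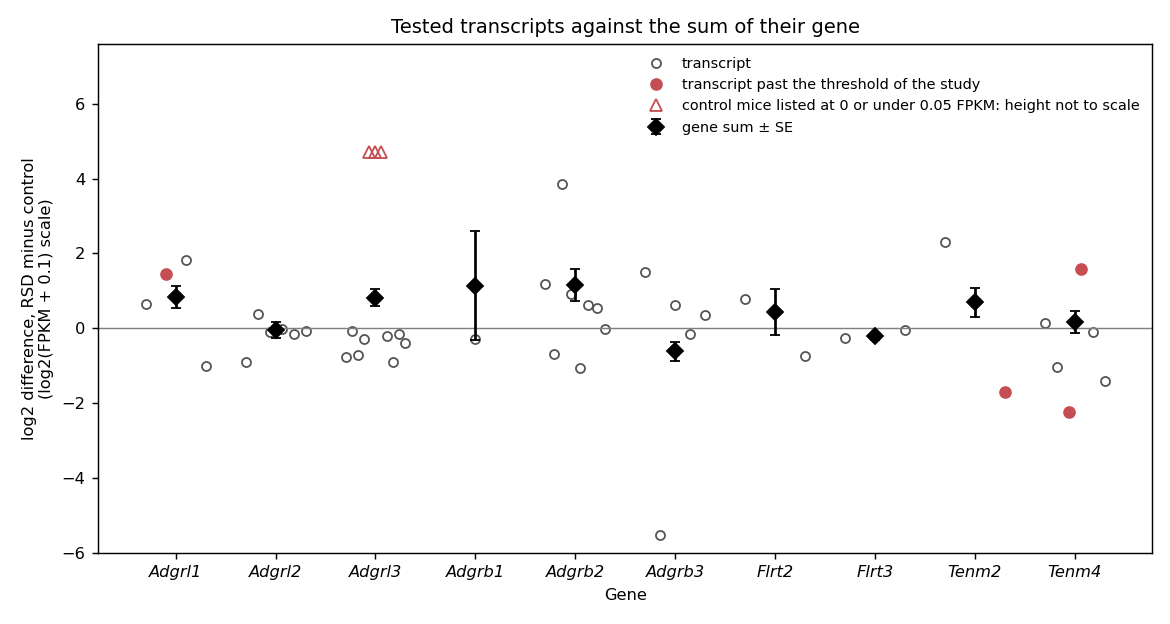
Log2 difference, RSD minus control mice, of each gene sum (black diamond, ± SE) and of each of its tested transcripts (circles, red where past the threshold of the study). The 3 triangles are the Adgrl3 transcripts whose control mice were at 0 to 0.0129 FPKM, drawn at a height that is not to scale. The transcripts of a gene lie on both sides of 0 for most genes, also where the sum differs little, as in Tenm4 (0.18).

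Measured against the whole table, the 10 genes varied more from mouse to mouse. The leading transcript differed between mice in 8 of the 10, all but Adgrl1 and Flrt3, against 3890 of 7221 genes with at least 2 transcripts (53.9%). Of 16 transcripts that reached 5 FPKM in a mouse, 8 were at or under 0.05 FPKM in another mouse, against 1125 of 8676 (13.0%). Listed at 0 in every control mouse and above 0 in every RSD mouse were 3 of 60 transcripts (5.0%), ENSMUST00000122356 and ENSMUST00000122037 of Adgrl3 and ENSMUST00000107165 of Tenm4, against 86 of 32870 (0.262%). The reverse was seen for 0 of the 60 and 19 of all transcripts. The median SD within a group was 0.66 on the log2 scale for the 47 tested transcripts against 0.46 over all, and 0.41 for the sums against 0.29. The median size of the log2 difference was 0.72 for transcripts against 0.32, 0.66 for sums against 0.22, and 1.06 for shares against 0.31. These shares and medians describe genes that were picked with such values known. Nor was the comparison matched for the number of transcripts per gene, which ran from 2 (Flrt2 and Flrt3) to 14 (Adgrl3) among the 10 genes.

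The loci also hold transcripts that the study lists as lncRNA, and the sums change with them. There were 27 such transcripts in 7 of the 10 loci, none at Adgrb1, Adgrb2 and Flrt3. The largest, NONMMUT066359.2, lies over the last part of Adgrl1 on the same strand (8, 83940540 to 83941946) and was even, at 82.4, 76.7 and 85.3 FPKM in control mice against 83.9, 79.5 and 89.3 FPKM in RSD mice. With it the Adgrl1 locus summed to 127, 106 and 105 FPKM in control mice against 138, 130 and 145 FPKM in RSD mice, so the RSD mice were still above but the log2 difference was 0.29 ± 0.12 in place of 0.84. For the whole Adgrl3 locus it was 0.73 ± 0.21, again with every RSD mouse above. For Adgrb3 it was -0.24 ± 0.18 and the groups overlapped, at 60.7, 62.9 and 63.4 FPKM in control mice against 41.5, 67.0 and 52.9 FPKM in RSD mice. The Tenm2 locus turned in sign, to -0.31 ± 0.26, at 19.1, 35.1 and 20.2 FPKM in control mice against 18.4, 17.5 and 22.2 FPKM in RSD mice. Of the 24 lncRNA transcripts tested, 1 passed the threshold of the study in the lower direction (1.37% of all lncRNA transcripts). This was MERGE.6166.5 in Tenm2, at 4.13, 10.6 and 3.28 FPKM in control mice against 3.18, 2.25 and 1.37 FPKM in RSD mice. Single mice stood out at 2 others, NONMMUT015256.2 in Flrt2 with 18.6 FPKM in control mouse 3 and at most 0.182 FPKM elsewhere, and NONMMUT000408.2 in Adgrb3 with 9.91 FPKM in RSD mouse 2 and 0.117 to 0.131 FPKM elsewhere. These 2 were named after their values were seen.

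The pathway around the receptors was taken as 6 lists of 46 ligands, co-receptors, intracellular partners and related receptors, of which 43 had a row and 42 could be tested. Of the 42, 24 were higher and 18 lower on average, with a median log2 difference of 0.16 against 0.03 over all genes. Past the threshold of the study were 3, each in the higher direction, which 1.85% of all genes passed. None had an adjusted p under 0.05 in limma (smallest adjusted p = 0.513), against 0.0733% of all genes, and 10 of the 42 had an unadjusted p of at most 0.05, against 8.94% of all genes. Nrxn2, a presynaptic neurexin, was at 4.19, 4.18 and 4.18 FPKM in control mice against 12.1, 14.0 and 6.29 FPKM in RSD mice. Its log2 difference was 1.27 ± 0.31 (limma, adjusted p = 0.513), higher in 3 of 3 RSD mice. Unc5a, a netrin receptor that FLRT proteins bind, was at 11.7, 6.44 and 5.49 FPKM in control mice against 19.8, 18.0 and 12.3 FPKM in RSD mice, a log2 difference of 1.12 ± 0.33 (limma, adjusted p = 0.532), also with every RSD mouse above. Rtn4r, the Nogo receptor that BAIs bind, was at 28.8, 8.50 and 13.1 FPKM in control mice against 44.8, 42.8 and 25.7 FPKM in RSD mice, a log2 difference of 1.31 ± 0.48 (limma, adjusted p = 0.550) with overlapping groups. At Unc5a and Rtn4r control mouse 1 was the highest of the control mice, as it was at Slc17a7 (311, 0 and 0.0055 FPKM), and the link was not tested. The count of 3 was 7 without control mouse 1 and 1 without control mouse 2 or RSD mouse 1. Unc5a missed the threshold without control mouse 2, control mouse 3 or RSD mouse 1, and Rtn4r missed it without any of these or RSD mouse 2.

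List by list, none of the partners passed the adjusted threshold. Of the other FLRT and teneurin ligands (Flrt1, Tenm1 and Tenm3), 2 were positive and 1 negative. Flrt1 lay above in every RSD mouse (0.39 ± 0.15), at 8.95 to 10.48 FPKM in control mice against 10.54 to 13.7 FPKM in RSD mice. Nrxn3, another neurexin, differed by -0.18 ± 0.13 with overlapping groups. All 3 tested FLRT co-receptors were positive, and of the 5 tested BAI ligands 4 were positive, Rtn4rl1 being above in every RSD mouse (0.68 ± 0.18) and C1ql3 the negative one (-0.14 ± 0.11). The 15 intracellular partners were split, 9 positive and 6 negative. Among them Shank1, a postsynaptic scaffold, was above in every RSD mouse (1.12 ± 0.47) and Gnao1, a G protein subunit, was below (-0.70 ± 0.24). The 13 other adhesion receptors tested were also split, 5 positive and 8 negative, with Adgrf5 (-0.58 ± 0.22) and Celsr3 (-0.35 ± 0.17) below in every RSD mouse. In all, 5 partner genes were above in every RSD mouse and 4 were below, against 9.39% and 6.66% of all genes.

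**Figure D5:**
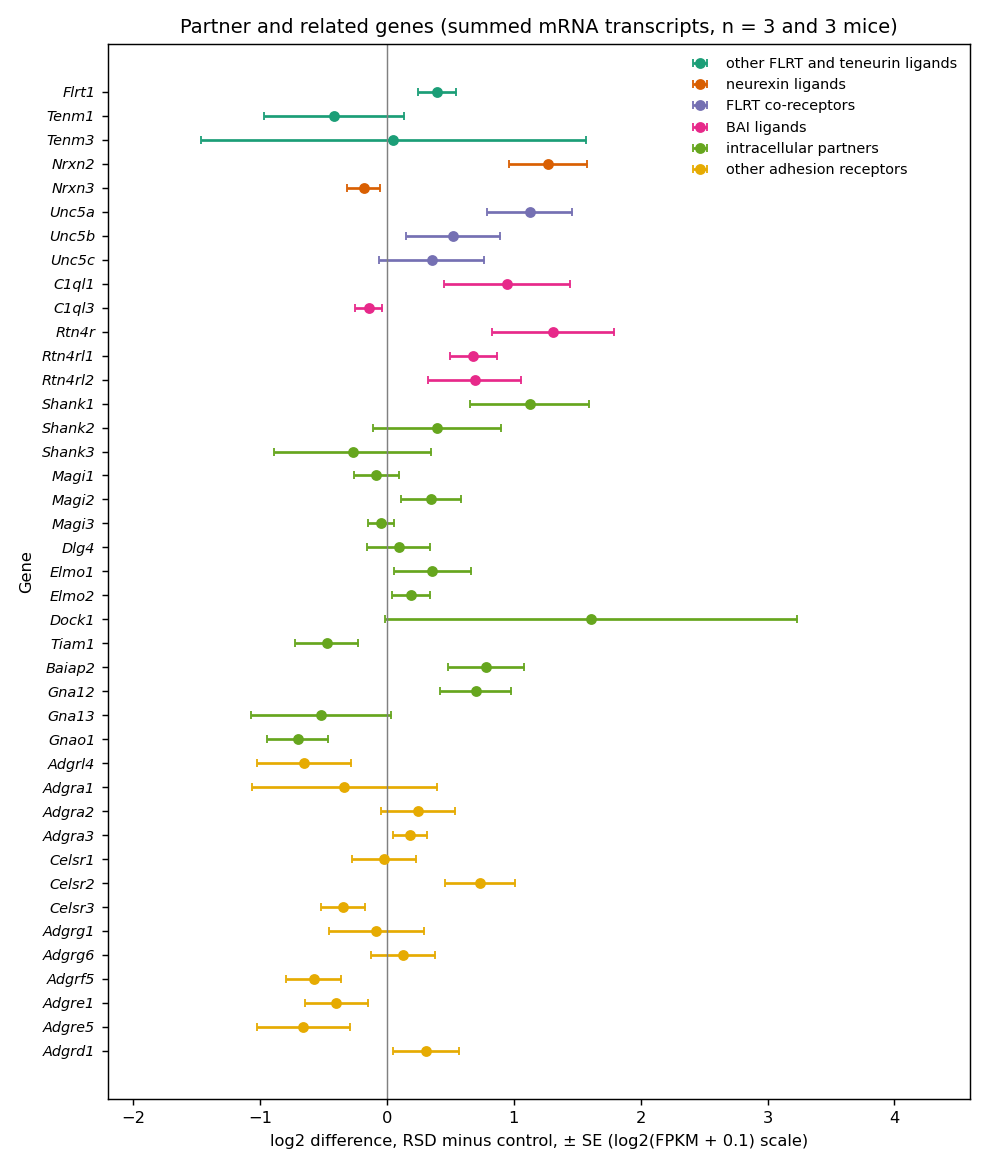
Log2 difference, RSD minus control mice, ± SE for partner and related genes that could be tested (summed mRNA transcripts, 3 mice per group), coloured by list. Nrxn2 (1.27), Unc5a (1.12) and Rtn4r (1.31) are the 3 past the threshold of the study, and Dock1 (listed at 0 in control mouse 1) and Tenm3 (0.282 to 9.34 FPKM) have the widest bars.

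For each gene, the other gene with the most similar profile over the 6 mice was found among 12276 genes, by Pearson r of log2(FPKM + 0.1) as a description. These were Ncoa7 for Adgrl1 (r = 0.992), Pcdhga9 for Adgrl2 (0.978), Dapk1 for Adgrl3 (0.991), Nkap for Adgrb1 (0.992), Npas3 for Adgrb2 (0.991), Phkg1 for Adgrb3 (0.996), Gm14435 for Flrt2 (0.994), 3632451O06Rik for Flrt3 (0.995), Slc35e1 for Tenm2 (0.989) and Tmem41b for Tenm4 (0.974). None of the 10 genes was the closest match of another. With 6 mice such values are common, since between 36 genes (Adgrl2) and 334 genes (Adgrl1) had an r above 0.9, and all profiles share the same libraries.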

How the data were processed

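Libraries of PFC RNA from 3 control and 3 RSD mice kept the strand and were depleted of ribosomal RNA. The authors assembled transcripts and deposited FPKM values of each lncRNA and mRNA transcript in each mouse, computed with the Cufflinks suite, which divides fragments among isoforms by estimation. The submitters' processing notes name Bowtie 0.12.2 and mm9, but 60 of the 60 transcripts overlap their GRCm38 RefSeq gene (99.9% of 31440 mRNA transcripts matched by symbol), so positions are read as GRCm38. Columns of the authors' own fold changes and p-values were not used. The study names a test for read counts, which FPKM values do not allow, so limma 3.58.1 (R 4.3.3) was fitted instead, two-sided and with its variance trend, on log2(FPKM + 0.1) of all features with at least 0.5 FPKM in at least 3 mice, separately for gene sums, mRNA transcripts, shares within a gene and lncRNA transcripts. A share is the log2 ratio of a transcript to its gene sum, each plus 0.1. The Benjamini-Hochberg adjustment of p-values ran over all features of a fit. A p-value sets the group difference against the spread between mice within the groups, moderated over all features. It does not cover the spread between cages or rooms. The members, the lists and the tests were chosen with earlier results of these data known. Named in the text were all 10 sums, member transcripts with a mean of at least 1 FPKM or past a threshold, partner genes past a threshold and the 1 gene most like each member; any others were named after their values were seen. Read counts are not known, so no counting interval is given. Promoters are RefSeq windows of GRCm38.p6. Alternatives were another pseudocount (0.01 or 1), no filter or one of 1 FPKM, no trend, median or quantile scaling, a replicate block, each mouse left out, whole-locus sums, and both tables fitted together. A listed partner gene enters the counts but is not reported here by itself.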

Additional observations from a re-analysis of the deposited data

How the results depend on the processing

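The counts below describe genes selected on these values, and the 3 transcripts with an adjusted p under 0.05 in limma met the filter only through the RSD mice. That count was 1 when the pseudocount was 0.01 or 1 or the filter 1 FPKM, and 0 to 2 with a mouse left out. Of the shares it was 3, then 1 without a trend or without a filter, 0 with a pseudocount of 1, and 0 to 1 with a mouse left out. The number of transcripts past the threshold of the study was 7, was 4 with a pseudocount of 1, and ran from 7 to 9 with a mouse left out. That of shares was 12 and ran from 9 to 15 with a mouse left out. That of gene sums was 1 and ran from 0 to 2, and that of partner genes was 3 and ran from 1 to 7, from 7 without control mouse 1 to 1 without control mouse 2 or RSD mouse 1. With the replicate number as a block, counts with an adjusted p under 0.05 were 0 transcripts and 0 shares, and 0 gene sums passed the threshold of the study. Residuals of same-numbered mice correlated at 0.129, -0.0945 and 0.0961, and those of differently numbered mice at -0.204 to 0.133. With 3 mice per group, these values cannot decide whether the numbers pair the mice. Nrxn2 was no longer past the threshold with whole-locus sums (log2 difference 0.72), and Unc5a and Rtn4r were not without control mouse 2 or 3 or RSD mouse 1, nor Rtn4r without RSD mouse 2. No called difference reversed in any alternative. Beside these counts, 982 comparisons of a single gene sum, transcript or share with its value under an alternative were made. Of these, 947 stayed within the spread between mice or kept their call, 27 moved beyond it and 8 lost the threshold. Loss of the threshold was scored for partner genes only, so the 8 do not cover the 10 genes or their transcripts. The Adgrb2 sum lost it with the replicate block and without control mouse 2, RSD mouse 1 or RSD mouse 2. Its difference stayed within the spread in each of these, so they are among the 947. Scaling moved the median gene difference from 0.03 to -0.05 (median) or -0.06 (quantile), and no gene sum changed sign with it. Depth is available only as an estimated ratio, and FPKM values near 0 cannot be told from a failed estimate. The cause of these changes was not tested.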
